A study of Mus musculus with 10 samples.

Results

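The cytosolic chaperones and heat shock proteins described here are 40 genes of the HSP70, HSP110, HSP90, HSP40, small HSP and chaperonin families, together with co-chaperones and heat shock factors. They were taken by gene symbol from the deposited table of 25050 genes, in which each symbol had 1 row, and 39 of the 40 had enough counts to be tested among 14526 genes. Hspa1l, a relative of HSP70, had 3 to 18 counts per library and was not tested. The family name holds for most members, although Hspa9, Hspd1 and Hspe1 encode chaperones of the mitochondrial matrix and Hsf1 and Hsf2 encode transcription factors.

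RNA was sequenced from the brains of 10 FVB/NJ mice, 5 wildtype (Abcc5+/+) and 5 Abcc5 knockout (Abcc5-/-). Abcc5 encodes an ATP-binding cassette transporter of organic anions, and the study compared brains with and without it. The animals were killed with carbon dioxide, whole brains were frozen on dry ice, and libraries were made from polyadenylated RNA. No treatment is named, and neither the age of the mice nor the structure of the knockout allele is given in the sources used here. Whole brain mixes many cell types, so fewer cells of a type and less RNA per cell cannot be told apart.

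Chaperones keep proteins folded. HSP70 proteins bind exposed stretches of unfolded polypeptide in a cycle driven by ATP, HSP40 proteins deliver clients to them through a J domain, and HSP110 proteins exchange their nucleotide. HSP90 acts later, on kinases and steroid receptors among other clients, small HSPs hold misfolded proteins without using ATP, and chaperonins enclose clients in a ring. Heat and other protein stress activate the factor HSF1, which binds heat shock elements, repeats of the letters GAA in alternating orientation, and raises transcription of the inducible members. In neurons the constitutive HSP70 Hspa8 also strips clathrin from synaptic vesicles.

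Sequencing depth was uneven, with total counts between 7731294 and 23588335. The deeper libraries, wildtype replicate 1 and knockout replicates 2 and 4, held 19795743 counts or more, whereas the other 7 held 11479995 or fewer. Abcc5 had 299 to 326 CPM (counts scaled to a common library size) in wildtype and 211 to 226 CPM in knockout libraries, so its transcripts were lower but still counted in the knockout. Markers of neurons, astrocytes, oligodendrocytes and microglia were detected, and no listed marker was at 0 in all libraries. On the first principal component of all genes, knockout replicate 3 lay far from the other 9. Its summed level of 6 cerebellar granule cell markers was 74.9 CPM against at least 959 CPM in the other 9 libraries, and that of 6 Purkinje cell markers was 874 against at least 1825 CPM. The summed level of 6 microglial markers was 162 to 179 CPM in wildtype and 187 to 232 CPM in knockout libraries. The part of these differences in the results below was not tested.

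The listed chaperone genes were lower in knockout far more often than higher. The list was chosen with earlier results of these data known, so its shares beside those of all genes are a description. By edgeR's quasi-likelihood test with Benjamini-Hochberg adjustment over all genes tested, 6 of the 39 members fell (15.4%), against 0.964% of all genes tested. These 6 were Dnajb5, Dnajb1, Hspa1b, Hsph1, Chordc1 and Hspa8. No member rose, against 0.213% of all genes (1.18% in either direction), and DESeq2 and limma-voom called no member higher either. At an unadjusted p under 0.05, 19 members were lower and 1 was higher, against 8.03% and 6.74% of all genes. The fitted log2 fold change was below 0 for 35 of 39 members, against 48.4% of all genes, and the members' median was -0.12 where that of all genes was 0.0042. In 9 members every knockout library lay below every wildtype library, against 2.64% of all genes, and in 1 member, Hspb6, every knockout library lay above, against 1.54%. In the authors' deposited table, 6 of the 40 members had an adjusted p under 0.05, and they were the same 6 genes.

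**Figure D1:**
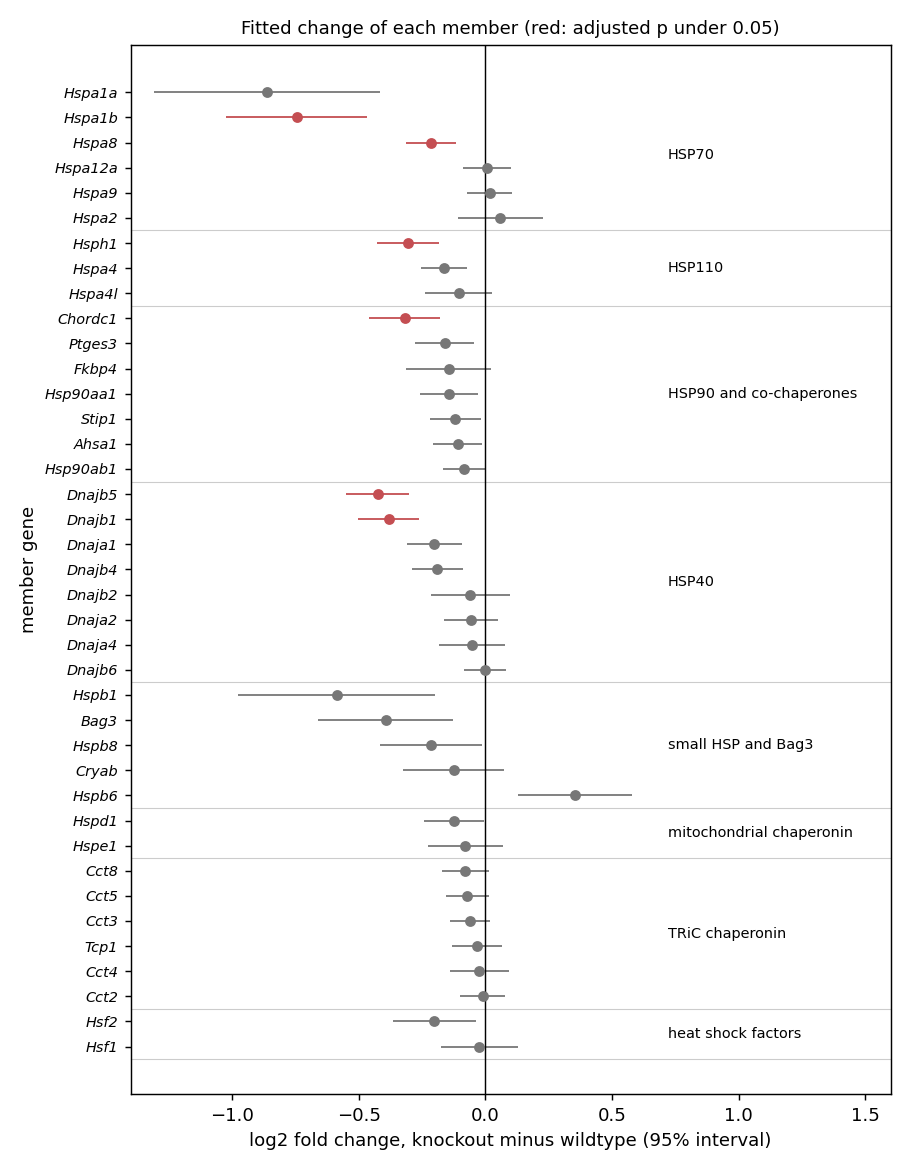
Fitted log2 fold change of the 39 tested members (horizontal axis, knockout minus wildtype; points with 95% intervals, n = 5 libraries a group), ordered by size within each family; red marks an adjusted p by edgeR under 0.05. The 6 red points all lie below 0, and Hspb6 is the member farthest above 0, at 0.35.

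**Figure D2:**
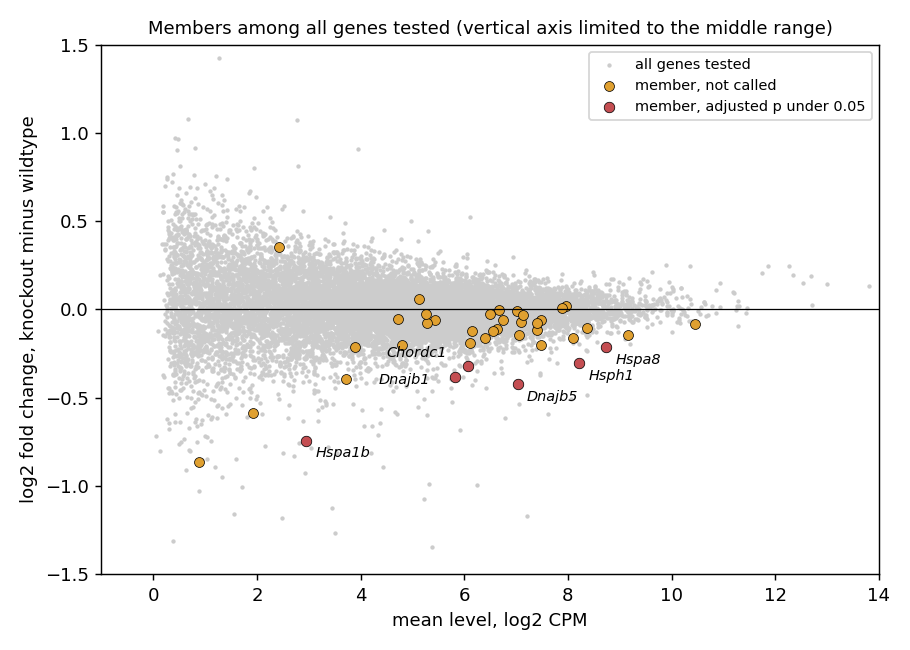
Log2 fold change (vertical axis, with genes beyond its ends not shown) against the mean log2 CPM of all 14526 genes tested (grey), with the 33 members not called in orange and the 6 called in red. Most members lie below the line at 0, with Hspa1b the lowest of the called ones at -0.74.

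Heat shock elements are the one sequence feature that the biology of these genes points to, so the stretches around their transcription starts are shown first. The sequences are from RefSeq on GRCm38.p6, whose promoter table held 33 of the 40 members. Hspa8, Hspa9, Hsp90aa1, Hsp90ab1, Cryab, Cct4 and Hsf1 were not matched. Each stretch runs 5′ to 3′ from 120 bases before to 30 bases after an annotated start. Capitals mark pairs of the repeat, GAANNTTC or TTCNNGAA, which each read the same on both strands and which overlap where repeats follow each other. Hspa1a and Hspa1b are shown for their likeness, Hsph1 and Chordc1 as called members with 3 repeats in a row, Hspe1 as a member with such repeats that was not called, and Dnajb1 and Dnajb5 as called members in which these letters do not occur in the window.
Hspa1a (chr17:34972127-34972276, minus strand): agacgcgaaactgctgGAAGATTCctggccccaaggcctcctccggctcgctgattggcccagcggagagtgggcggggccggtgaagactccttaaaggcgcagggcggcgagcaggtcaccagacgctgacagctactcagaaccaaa
Hspa1b (chr17:34959209-34959358, minus strand): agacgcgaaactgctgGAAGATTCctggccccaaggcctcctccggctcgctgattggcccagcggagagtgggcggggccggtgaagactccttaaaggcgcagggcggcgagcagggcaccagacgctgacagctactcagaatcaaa
Hsph1 (chr5:149636286-149636435, minus strand): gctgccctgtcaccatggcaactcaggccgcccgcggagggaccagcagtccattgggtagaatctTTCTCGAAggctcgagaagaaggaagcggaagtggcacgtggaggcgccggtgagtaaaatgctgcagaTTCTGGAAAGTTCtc
Chordc1 (chr9:18292147-18292296, plus strand): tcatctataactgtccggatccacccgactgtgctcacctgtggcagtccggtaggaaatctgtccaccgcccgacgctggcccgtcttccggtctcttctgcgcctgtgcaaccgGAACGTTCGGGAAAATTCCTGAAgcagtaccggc
Hspe1 (chr1:55088028-55088177, plus strand): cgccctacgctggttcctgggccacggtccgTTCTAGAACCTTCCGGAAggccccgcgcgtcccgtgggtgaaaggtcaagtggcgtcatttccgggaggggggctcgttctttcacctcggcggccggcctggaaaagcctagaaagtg
Dnajb1 (chr8:83608055-83608204, plus strand): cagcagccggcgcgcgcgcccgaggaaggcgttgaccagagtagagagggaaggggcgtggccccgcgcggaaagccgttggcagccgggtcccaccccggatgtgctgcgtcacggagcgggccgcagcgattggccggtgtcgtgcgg
Dnajb5 (chr4:42949747-42949896, plus strand): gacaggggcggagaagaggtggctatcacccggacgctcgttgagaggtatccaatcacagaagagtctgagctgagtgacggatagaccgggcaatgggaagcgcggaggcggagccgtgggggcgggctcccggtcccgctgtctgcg

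A run of 3 repeats, GAANNTTCNNGAA or TTCNNGAANNTTC on either strand, occurred in the promoter windows of 5 of the 33 members (15.2%), namely Chordc1, Dnajb6, Hspd1, Hspe1 and Hsph1. Among all 27025 genes of the table it occurred in 179 (0.662%), and in 198 of 32851 windows (0.603%), each window being 300 bases long. In Hsph1 and Chordc1 the run ends 28 and 19 bases after the start from which the printed stretch is counted. Hspd1 and Hspe1 are divergent neighbours whose windows share 285 bases, so their runs are the same bases read from opposite strands. A single pair of repeats occurred in 17 of the 33 members (51.5%), in 4587 of all 27025 genes (17%) and in 15.1% of all windows. Of the 33 members with a window, 5 were called, and 2 of these 5 held the run of 3. The other 3 members with the run were not called, and Hspd1 and Hspe1 among them share it. A pair of repeats occurred in 3 of the 5 called members with a window. A match of letters describes the sequence and does not show binding. A missing match does not show that a gene lacks a heat shock element, since only these exact letters in these windows were searched.

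The stress-inducible cytosolic HSP70 genes had the lowest fitted log2 fold changes among the members. Hspa1b (ENSMUSG00000090877, chromosome 17, 35093381 to 35096183 as the deposited table places it, with no build named) had 8.76, 8.22, 9.29, 10.7 and 11.4 CPM in wildtype replicates 1 to 5 and 4.40, 5.88, 6.60, 6.57 and 4.39 CPM in knockout replicates 1 to 5, and this order of replicates is kept below. Every knockout library lay below every wildtype library, and knockout replicates 1 and 5 were the lowest. The mean fell from 9.69 ± 1.35 to 5.57 ± 1.11 CPM (SD, n = 5 each, as for all means below), a log2 fold change of -0.74 (SE 0.13, adjusted p by edgeR 0.00968). The difference of mean log2 CPM was -0.49 within the deeper libraries, which hold 1 wildtype brain, and -0.94 within the other 7.

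Hspa1a (ENSMUSG00000091971, chromosome 17, 35106144 to 35109069) encodes nearly the same protein from a neighbouring gene. It had 2.01, 1.50, 2.32, 2.44 and 3.03 CPM in wildtype and 1.27, 1.32, 0.791, 1.40 and 0.855 CPM in knockout, so the groups did not overlap either. With 6 to 40 counts per library its log2 fold change of -0.86 (SE 0.21) did not pass (adjusted p by edgeR 0.0619), and without wildtype replicate 2 it did (-0.97, adjusted p by edgeR 0.0473). The open reading frames of both genes were identical at 1915 of 1926 aligned bases (99.4%), and their promoter windows at 296 of 300, so reads of one can be counted for the other or left out, and the split is uncertain. Hspa1a took 10.7% to 22.4% of the counts of both per library. With the counts of both summed, the level fell from 11.9 ± 1.89 to 6.69 ± 1.17 CPM (log2 fold change -0.78, SE 0.13, adjusted p by edgeR 0.00569).

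Hspa8 (ENSMUSG00000015656, chromosome 9, 40609067 to 40613283), the constitutive cytosolic HSP70, had 454, 428, 449.8, 486 and 477 CPM in wildtype and 412, 398, 374, 379 and 415 CPM in knockout. The knockout libraries lay below the wildtype ones by a small margin, with wildtype replicate 2 the nearest to them. Its mean fell from 459 ± 22.9 to 395 ± 18.5 CPM, or by 13.8% (log2 fold change -0.22, SE 0.046, adjusted p by edgeR 0.0338). Its log2 difference was -0.22 within the deeper libraries and -0.20 within the other 7. The remaining HSP70 members did not pass. Hspa9 of the mitochondrial matrix had 246 ± 4.81 CPM in wildtype and 249.6 ± 11.9 CPM in knockout (log2 fold change 0.018). Hspa12a, an atypical relative, and Hspa2, which in mouse is best known from male germ cells, showed log2 fold changes of 0.0078 and 0.06. Hspa1l had 0.350 to 1.13 CPM in wildtype and 0.396 to 1.27 CPM in knockout.

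Among the HSP110 genes, Hsph1 (ENSMUSG00000029657, chromosome 5, 150416862 to 150438951), a heat-inducible member, fell. Its levels were 305, 306, 345, 344 and 343 CPM in wildtype and 286, 265, 279.8, 236 and 264 CPM in knockout libraries. No knockout library reached the wildtype range, and knockout replicate 4 was the lowest. The mean went from 329 ± 21.2 to 266 ± 19.3 CPM (log2 fold change -0.31, SE 0.057, adjusted p by edgeR 0.0161), with log2 differences of -0.29 within the deeper libraries and -0.27 within the other 7. Hspa4, a constitutive HSP110, did not overlap between groups (278 to 305 CPM in wildtype, 244 to 274 CPM in knockout) and missed the threshold (log2 fold change -0.16, adjusted p by edgeR 0.0835). Hspa4l, the third member, had 296, 324, 362, 363 and 369 CPM in wildtype and 346, 324, 296, 307 and 320.3 CPM in knockout. These ranges overlapped, and the log2 fold change was -0.10 (adjusted p by edgeR 0.457).

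**Figure D3:**
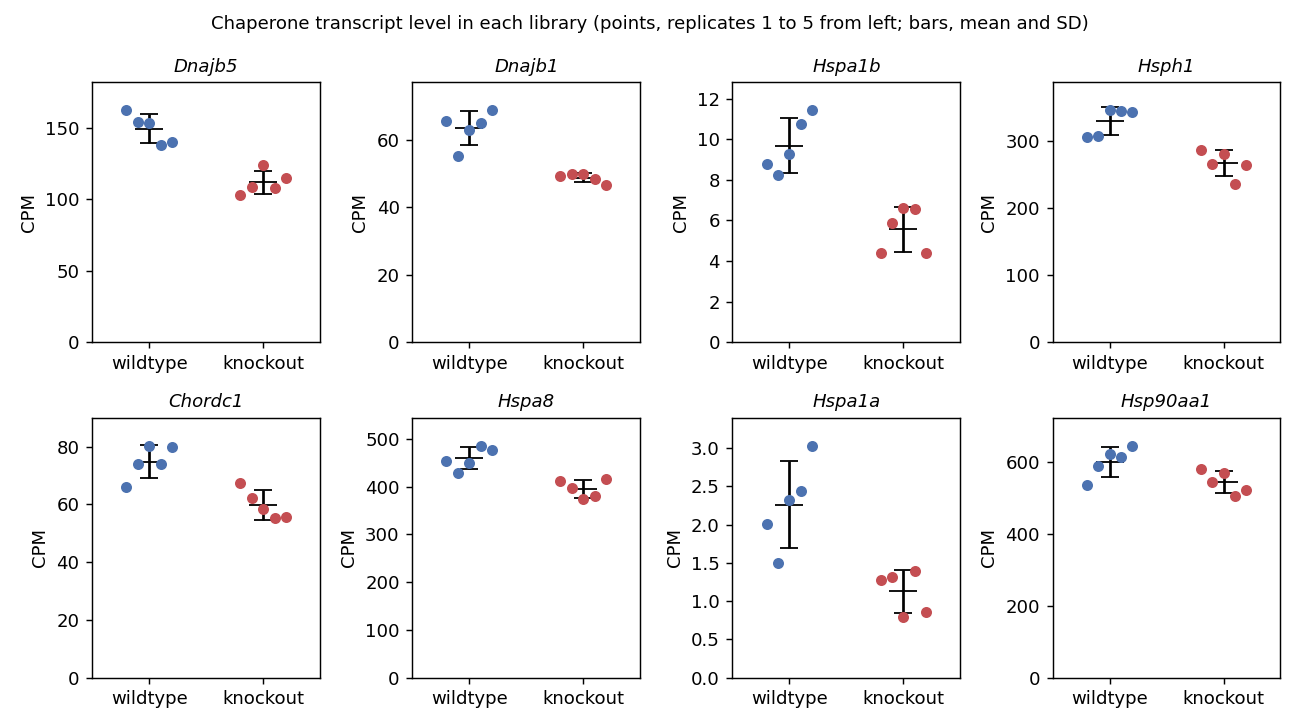
Level of the 6 called members, of Hspa1a and of Hsp90aa1 in every library (vertical axes, CPM from 0; blue wildtype, red knockout; points are replicates 1 to 5 from the left, bars the mean and SD, n = 5). Groups are separate for Dnajb5, Dnajb1, Hspa1b, Hsph1, Hspa8 and Hspa1a, and overlap for Chordc1 and Hsp90aa1.

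The HSP40 genes with the smallest p-values belong to class B. Dnajb5 (ENSMUSG00000036052, chromosome 4, 42962686 to 42972297), a J-domain protein, had 163, 154, 153, 138 and 140.2 CPM in wildtype and 103, 109, 124, 108 and 115 CPM in knockout. The lowest wildtype library stood above the highest knockout one, which was knockout replicate 3. It fell from 149.7 ± 10.3 to 112 ± 8.21 CPM, or by 25.2%, and had the smallest p of all 39 members (log2 fold change -0.42, SE 0.058, adjusted p by edgeR 0.00164). The log2 difference was -0.58 within the deeper libraries and -0.36 within the other 7, where its adjusted p by edgeR was 0.0635.

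Dnajb1 (ENSMUSG00000005483, chromosome 8, 86132074 to 86135801), the heat-inducible partner of HSP70 known as HSP40, had 65.7, 55.3, 63.1, 65.0 and 68.8 CPM in wildtype and 49.2, 49.8, 49.9, 48.4 and 46.8 CPM in knockout. The knockout values lay within a narrow band below all wildtype values, of which replicate 2 was the lowest. Its mean fell from 63.6 ± 5.07 to 48.8 ± 1.29 CPM (log2 fold change -0.38, SE 0.056, adjusted p by edgeR 0.00247). Within the deeper libraries the log2 difference was -0.42, and within the other 7 it was -0.37.

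No other HSP40 member passed. Dnajb4 did not overlap between groups (70.4 to 80.0 CPM in wildtype, 61.1 to 68.1 CPM in knockout; log2 fold change -0.19, adjusted p by edgeR 0.0671). Dnaja1, a class A partner of HSP70, had a fitted log2 fold change of -0.20 (adjusted p by edgeR 0.0755), and it shares its interval in the table with Smu1. Without knockout replicate 3 both passed, with adjusted p-values by edgeR of 0.0333 for Dnajb4 and 0.0359 for Dnaja1. Without wildtype replicate 1, Dnaja1 alone of these passed, at 0.0433. Dnaja2 had 169.6, 190.5, 193, 171 and 189 CPM in wildtype and 173, 168, 187, 171 and 178 CPM in knockout, with overlapping ranges and a log2 fold change of -0.057. Dnaja4, Dnajb2 and Dnajb6 showed log2 fold changes of -0.053, -0.058 and -0.0016. Dnajb6, which keeps aggregation-prone proteins soluble, had a 95% interval of -0.084 to 0.081.

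The HSP90 genes themselves did not pass, and 1 of their co-chaperones did. Chordc1 (ENSMUSG00000001774, chromosome 9, 18096711 to 18118444), a zinc-binding HSP90 partner, had 65.9, 74.0, 80.4, 74.0 and 79.9 CPM in wildtype and 67.5, 62.3, 58.3, 55.2 and 55.7 CPM in knockout. The groups overlapped at wildtype replicate 1, which lay below knockout replicate 1. The mean fell from 74.8 ± 5.85 to 59.8 ± 5.15 CPM (log2 fold change -0.32, SE 0.066, adjusted p by edgeR 0.0303). Its log2 difference was -0.17 within the deeper libraries and -0.35 within the other 7.

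Hsp90ab1, the constitutive HSP90, had 1504, 1413, 1380.5, 1436 and 1453 CPM in wildtype and 1312, 1454, 1349, 1343 and 1328 CPM in knockout. Knockout replicate 2 lay inside the wildtype range and the other 4 knockouts below it, and the log2 fold change was -0.083 (95% interval -0.17 to 0.0022, adjusted p by edgeR 0.353). Hsp90aa1, the inducible HSP90, had a fitted log2 fold change of -0.14 (adjusted p by edgeR 0.229). Its levels were 535 to 645 CPM in wildtype and 506 to 579.7 CPM in knockout. The HSP70-HSP90 adaptor Stip1, the HSP90 activator Ahsa1, the immunophilin Fkbp4 and the p23 co-chaperone Ptges3 showed log2 fold changes of -0.12, -0.11, -0.14 and -0.16, with adjusted p-values by edgeR of 0.266, 0.279, 0.419 and 0.186. Fkbp4 was at 95.0 CPM in knockout replicate 3 and at 129 to 137 CPM in the other knockouts. Without that library its log2 fold change was -0.062.

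The small HSPs and Bag3, which couples Hspb8 to HSP70, showed log2 fold changes of both signs, and none passed. Hspb6 had 4.88, 4.81, 3.74, 4.36 and 4.78 CPM in wildtype and 6.48, 6.01, 5.80, 5.46 and 5.62 CPM in knockout. Every knockout library lay above every wildtype library, the reverse of the other non-overlapping members. Its log2 fold change was 0.35 (SE 0.11, adjusted p by edgeR 0.131). It had 29 to 132 counts per library, and its interval in the table overlaps those of Lin37 and BC053749. The 6 markers of pericytes and smooth muscle, cells known for Hspb6, summed to 124 to 144 CPM in wildtype and 127 to 149 CPM in knockout libraries.

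Cryab, a crystallin abundant in oligodendrocytes, had 80.8, 66.4, 69.4, 76.8 and 76.1 CPM in wildtype and 69.4, 80.0, 60.2, 73.7 and 52.5 CPM in knockout. Knockout replicates 3 and 5 lay below the wildtype range while the other 3 lay inside it (log2 fold change -0.12, adjusted p by edgeR 0.563). The summed level of 6 oligodendrocyte markers was 6613 to 7103 CPM in wildtype, 6102 CPM in knockout replicate 3 and 6354 to 7436 CPM in the other knockouts. Hspb1, Hspb8 and Bag3 showed log2 fold changes of -0.59, -0.21 and -0.39, with adjusted p-values by edgeR of 0.148, 0.312 and 0.152. Hspb1 had only 17 to 92 counts per library and passed without knockout replicate 2 (log2 fold change -0.85, adjusted p by edgeR 0.0211). In this family of 5, 3 members were lower and 1 was higher at an unadjusted p under 0.05, against 8.03% and 6.74% of all genes. DESeq2 and limma-voom called none of the 5.

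No chaperonin gene passed. Hspd1, the mitochondrial HSP60, had 86.5, 100.3, 101, 96.2 and 108 CPM in wildtype and 94.0, 87.2, 90.5, 86.2 and 92.9 CPM in knockout. The ranges overlapped, with wildtype replicate 1 among the knockout values (log2 fold change -0.12, adjusted p by edgeR 0.319). Its co-chaperonin Hspe1 had a fitted log2 fold change of -0.079, and the intervals of both genes overlap in the table. For the TRiC ring, which folds actin and tubulin, 6 subunits were measured and none passed by edgeR, DESeq2 or limma-voom. None was at an unadjusted p under 0.05 by edgeR, where all genes gave 8.03% lower and 6.74% higher.

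Within the ring, Cct5 had 141, 136, 136, 145 and 143 CPM in wildtype and 134, 136, 127, 135 and 138 CPM in knockout. Cct8, which lies on chromosome 16 as Abcc5 does, had 160.5, 177, 173, 173 and 185 CPM in wildtype and 167, 167, 165, 157 and 167 CPM in knockout. Both ranges overlapped, and the log2 fold changes were -0.071 and -0.078. Cct3 did not overlap between groups (108 to 111 CPM in wildtype, 102 to 107 CPM in knockout) at a log2 fold change of -0.06 (adjusted p by edgeR 0.474). Tcp1, Cct4 and Cct2 showed log2 fold changes of -0.031, -0.023 and -0.0094. The 95% intervals of the 6 subunits reached no lower than -0.17 and no higher than 0.093.

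Neither heat shock factor passed at the transcript level. Hsf1, the master factor of the heat shock response, had 43.4, 40.8, 34.3, 36.8 and 36.9 CPM in wildtype and 40.4, 38.2, 35.8, 40.9 and 34.1 CPM in knockout. The groups overlapped throughout (log2 fold change -0.024, 95% interval -0.18 to 0.13, adjusted p by edgeR 0.923). Hsf2, a factor also known from brain development, had 26.3, 28.4, 30.1, 31.7 and 32.3 CPM in wildtype and 26.2, 23.2, 28.8, 24.2 and 28.0 CPM in knockout. Its lowest libraries were knockout replicates 2 and 4, and its log2 fold change was -0.20 (adjusted p by edgeR 0.234). The activity of HSF1 is controlled largely on the protein, which these data do not measure.

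Stress-inducible genes were then set against a paralog taken as constitutive in the same library, so that library scaling cancels. The 4 pairs were chosen after the values were seen and 3 of them hold called members, so the ratios are a description with no test. Dnajb6, the partner of Dnajb1, itself holds a run of 3 heat shock repeats. Its log2 fold change of -0.0016 was the highest of the HSP40 members, so another partner would give another difference. The log2 ratio of Hspa1b to Hspa8 was -5.55 ± 0.13 in wildtype and -6.13 ± 0.35 in knockout, a difference of -0.58. The ratio of Hsph1 to Hspa4 differed by -0.14 and that of Dnajb1 to Dnajb6 by -0.38. All 5 knockouts lay below the wildtype mean in each of these pairs. For Hsp90aa1 to Hsp90ab1 the difference was -0.059, with 3 of 5 knockouts below the wildtype mean.

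Seen by library, the lower level was shared by all knockout brains. The median deviation of the 39 members from their wildtype mean, on the log2 CPM scale, was -0.072, -0.069, -0.17, -0.11 and -0.14 in knockout replicates 1 to 5. In the wildtype libraries it was -0.016, -0.013, -0.0040, -0.00073 and 0.050. These wildtype values lie around 0 by construction, because the same libraries set the mean. Between 30 and 33 of the 39 members lay below the wildtype mean in each knockout library. In wildtype replicates 1 to 5 the counts were 25, 21, 21, 20 and 10, so that of wildtype replicate 1 was the nearest to the knockouts. Across all genes tested the same share was 48.0% to 49.5% in the knockout libraries, where the members gave 76.9% to 84.6%. Knockout replicates 3 and 4 each held the lowest of the 10 values for 12 members. In knockout replicate 3 the small HSP family had the lowest family median, -0.58, and in knockout replicate 5 it was -0.49.

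**Figure D4:**
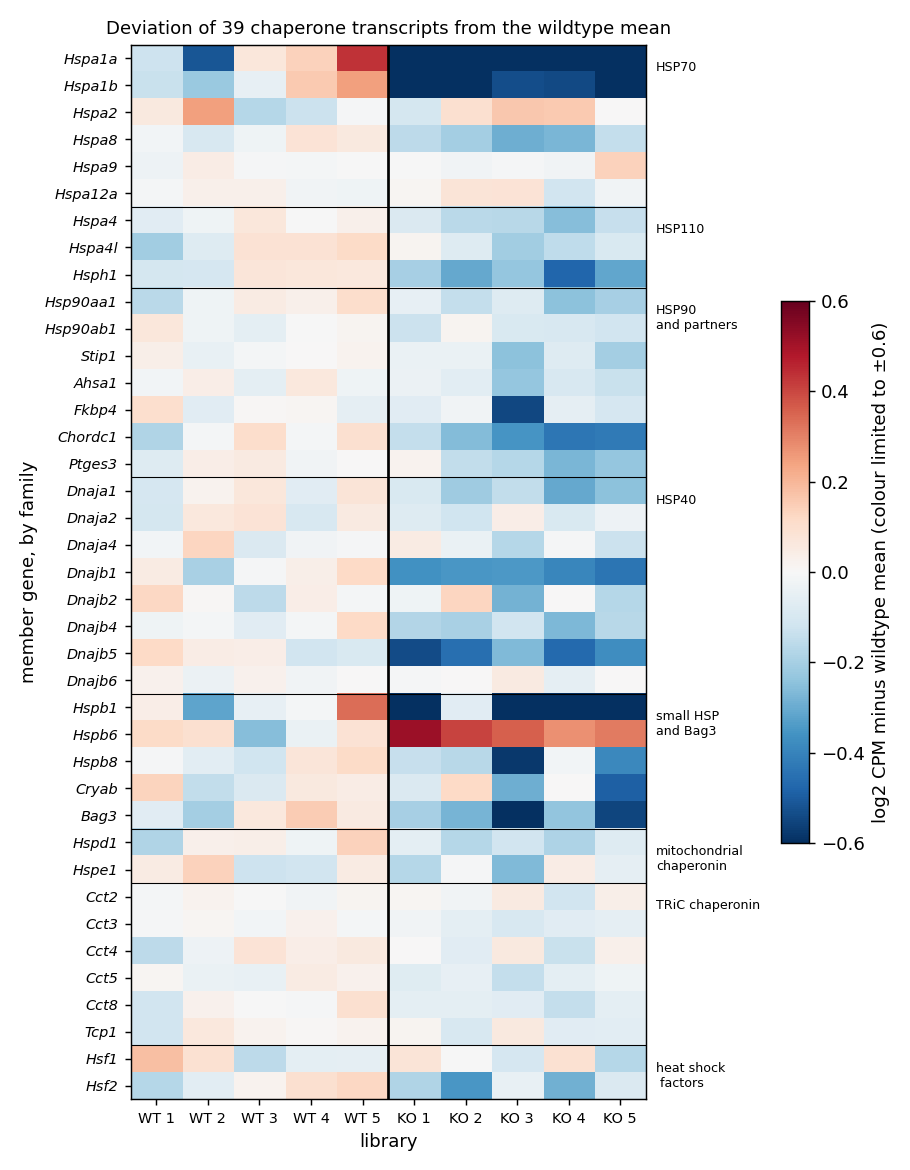
Deviation of each of the 39 tested members from its wildtype mean (colour, log2 CPM, limited to 0.6 in each direction) in the 10 libraries (columns; WT wildtype, KO knockout, replicates 1 to 5), with rows grouped by family. Hspa1a, Hspa1b, Dnajb1, Dnajb5 and Hsph1 are blue in all 5 knockouts, Hspb6 is red in all 5, and the TRiC rows stay pale.

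The calls differed in how far they rested on single libraries. Dnajb5, Dnajb1 and Hspa1b passed whichever of the 10 libraries was left out. For Hsph1, leaving out wildtype replicate 3, 4 or 5 ended the call (adjusted p by edgeR up to 0.0667). The call of Hspa8 ended when wildtype replicate 3, 4 or 5 was left out, and likewise for knockout replicate 1, 2 or 4 (up to 0.112). That of Chordc1 ended with the removal of any wildtype library but replicate 1, and of knockout replicate 2, 4 or 5 (up to 0.0955). Without knockout replicate 3, 8 members passed and the median of the members was -0.082. In the 7 libraries of lower depth alone no member passed by edgeR, against 0.179% of all genes called lower, and Hspa1b had the smallest adjusted p of the members, 0.0543. At an unadjusted p under 0.05 in those libraries, 21 of the 39 members were lower and 1 was higher, against 6.65% and 5.45% of all genes.

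**Figure D5:**
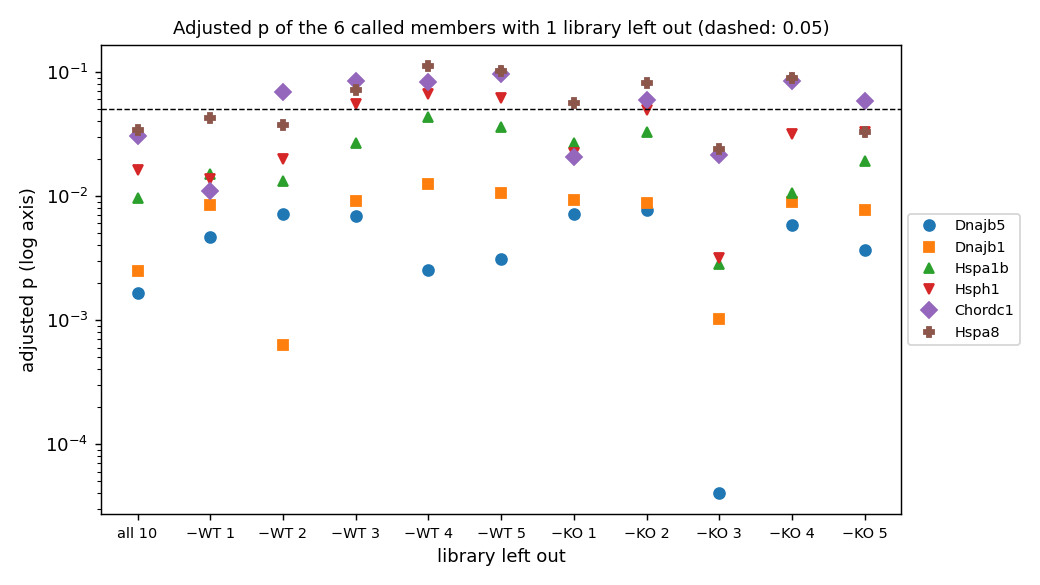
EdgeR adjusted p (vertical log axis) of the 6 called members with all 10 libraries and with each library left out (horizontal axis; WT wildtype, KO knockout); the dashed line is 0.05. Dnajb5, Dnajb1 and Hspa1b stay below the line throughout, and Chordc1 and Hspa8 cross it in 7 and 6 of the 10 cases.

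In a list of other genes of the chaperone network, called genes were near the share in all genes. Of 57 such genes, 54 were tested, 1 fell (1.85%, against 0.964% of all genes) and none rose by edgeR, DESeq2 or limma-voom. At an unadjusted p under 0.05, 5 were lower and 3 higher, where all genes gave 8.03% and 6.74%. Their median log2 fold change was -0.017. The 1 that fell was Serpinh1, a collagen-specific chaperone of the endoplasmic reticulum that heat also induces. It had 20.9, 17.5, 19.4, 20.1 and 18.7 CPM in wildtype and 12.3, 15.5, 11.5, 12.7 and 12.1 CPM in knockout, without overlap (log2 fold change -0.57, adjusted p by edgeR 0.00327). The summed level of 6 markers of meninges and fibroblasts, cells that make collagen, was 185 to 212 CPM in wildtype and 143 to 193 CPM in knockout libraries, and the part of this in the Serpinh1 value was not tested. Next by p-value, Ahsa2, a relative of Ahsa1, had a fitted log2 fold change of -0.24 (adjusted p by edgeR 0.0849). In the other direction Fkbp8, a membrane-bound immunophilin, and Hsf4, a heat shock factor known from the lens, had 0.12 and 0.25 (adjusted p-values by edgeR 0.216 and 0.281).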

How the data were processed

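The libraries came from 10 whole brains. For each Ensembl gene the deposited table gave a raw count in every library, and the submitters' processing notes name TopHat2 2.0.6, HTSeq, edgeR and limma; roles, settings and build are not given in the sources used here. It also held the authors' log2 fold changes (not used, since 629 cells had lost their decimal point) and the authors' adjusted p-value per gene. A further 10 columns of per-library values had lost decimal points and were not used. The library kit does not mark strand, and 10 members, none of them called, overlap another gene of the table.

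The raw counts went through edgeR 4.0.16 in R 4.3.3: filterByExpr (minimum count 10, minimum total 15), TMM scaling, and a quasi-likelihood fit with genotype as its only term, adjusted by Benjamini-Hochberg over all genes tested at a threshold of 0.05. Levels are CPM, log2 CPM used a prior count of 2, and the SE was derived from the F statistic. The common biological coefficient of variation was 0.071. Replicates differed by more than counting error (chi-square per degree of freedom 1.29 to 12.8). The p-values weigh the genotype difference against the spread among these brains, taken as independent. The sources used here do not say whether animals shared litters. Brains of shared litters may not be independent, and the p-values do not allow for this.

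The members, the wider list and the tests were chosen with earlier results of these data known. Values per library are given for called members, Hspa1a, and in each family the member with the smallest p and the one with the highest mean CPM. The wider list names called genes and the 2 with the smallest p in each direction. Alternatives were other scalings and filters, a replicate block, leaving out libraries, the 7 libraries of lower depth, limma-voom (limma 3.58.1), DESeq2 1.42.0, exact permutation and other thresholds. The method was tested on simulated data.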

Additional observations from a re-analysis of the deposited data

Results flagged for a closer look

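In 5 of 78 groups (39 members in 2 genotypes) a single library stood far from the other 4. Its gap to the nearest library was 0.74 to 0.90 of the range of the group. A nominal chance rate of about 1 in 20 was assumed and not computed from these data, and 5 of 78 is near it. All 5 were knockout libraries, which was not tested against chance. Hspa9 was at 271 CPM in knockout replicate 5 and at 243 to 246 CPM in the other 4. Hsp90ab1 was at 1454 CPM in knockout replicate 2 and at 1312 to 1349 CPM in the others. Fkbp4 was at 95.0 CPM in knockout replicate 3, the library with few cerebellar transcripts, and at 129 to 137 CPM in the others. Hspb1 was at 4.19 CPM in knockout replicate 2 and at 2.20 to 2.66 CPM in the others. Cct8 was at 157 CPM in knockout replicate 4 and at 165 to 167 CPM in the others.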

How the results depend on the processing

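The 6 calls held under DESeq2 size factors, upper-quartile scaling, both other filters and limma-voom, and DESeq2 called 9 members lower, these 6 with Hspa4, Dnaja1 and Dnajb4 (1 member, Hspa1a, had no adjusted p there). With 1 library left out, 3 to 8 members were lower and the median ran from -0.13 to -0.082. In the 7 libraries of lower depth 0 passed, at thresholds of 0.01 and 0.1 there were 3 and 10, and 3 passed without wildtype replicates 3, 4 or 5. The fits without libraries hold fewer samples, and the cause was not tested further. The wider list had 1 or 2 genes lower with 1 library left out and 2 at 0.1. Over all genes, 8 to 93 were higher and 67 to 248 lower with 1 library left out, 5 and 26 in the 7 libraries, 47 and 212 by DESeq2, 6 and 57 at 0.01, and 102 and 271 at 0.1.

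Same-numbered libraries did not deviate together over all genes (correlations -0.14 to 0.089), so no pairing by number was seen. A weak pairing, as by litter or preparation, could go unseen among 5 libraries a group. With the replicate block, 8 genes were higher and 82 lower, and 4 members were lower, without Hspa8 and Chordc1 (adjusted p by edgeR 0.0816 and 0.0875).

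Log2 fold changes near 0 changed sign. Dnajb6 had 0.015 with upper-quartile scaling, 0.024 in the 7 libraries and -0.014 to 0.012 with 1 library left out, and Cct2 had 0.0073, 0.029 and -0.024 to 0.018. With 1 library left out Hsf1 ran from -0.062 to 0.032, Hspa12a from -0.011 to 0.038, Cct4 from -0.065 to 0.0055 and Hspa9 from -0.015 to 0.028. Low counts limit Hspa1a, Hspa1l and Hspb1.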
